A study of Mus musculus with 2 samples.

Results

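Monocytes 3 is a label that the study's authors gave to a group of tumour leukocytes, and its cells were taken here by that name from the deposited annotation. It holds 402 of the 10050 annotated cells, 233 of 5385 in the APOE4 library and 169 of 4665 in the APOE2 library. The cells came from YUMM1.7 tumours, a mouse melanoma line of which 100000 cells in Matrigel were placed under the flank skin of mice carrying the human APOE4 or the human APOE2 gene in place of mouse Apoe. On day 19, CD45+ DAPI− cells, that is living leukocytes, were sorted, 10000 from each of 6 mice per genotype, and pooled into 1 droplet library per genotype (Chromium 3' v3 chemistry, 5000 cells targeted). Mice cannot be told apart within a library, and with no replicate library no difference between genotypes could be tested. Every interval given is a 95% interval that covers counting error only, treats UMIs (unique molecules counted) as independent, and says nothing of the spread between mice or between cells.

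Monocytes are blood phagocytes made in the bone marrow. In the mouse, classical monocytes carry much Ly6C and the chemokine receptor CCR2 and enter inflamed tissue and tumours, where they can turn into macrophages or dendritic cells. Non-classical monocytes carry little Ly6C, depend on the nuclear receptor Nr4a1, and patrol the inner wall of blood vessels. Levels below are given as CPM, counts per 1000000 UMIs of a label's cells summed within a library.

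The median cell of Monocytes 3 held 6205 UMIs over 2181 genes in APOE4 and 5872 UMIs over 2048 genes in APOE2, with 3.76% and 4.05% of UMIs from mitochondrial genes. The sums hold 1337846 UMIs for APOE4 and 924142 for APOE2. The libraries share 9 cell barcodes, carried by 1 cell of the label in APOE4 and by 0 in APOE2.

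The label held markers of both kinds of monocyte. The cells were clustered on the same genes, so these levels describe the label. The 14 classical monocyte genes together made up 38411 CPM in APOE4 and 40554 in APOE2 (22 labels had at least 50 cells in APOE4, 19 in APOE2). Lyz2, which encodes lysozyme, made up 22372 and 24459 CPM of this. The 13 other genes summed to 16039 CPM in APOE4, below Monocytes 2 with 18819, and to 16095 in APOE2, above Monocytes 2 with 12919. Of these 13, Chil3, a chitinase-like secreted protein, was at 1245 and 1359 CPM. Monocytes 2, the next label for Chil3, had 448 and 467 CPM. The 20 non-classical monocyte genes summed to 7228 CPM in APOE4 and 7624 in APOE2, of which Cebpb made up 3478 and 4126. This sum ranked 4 of 22 labels in APOE4, where M-MDSC 2 was highest with 12080. In APOE2 it ranked 3 of 19, where G-MDSC 1 was highest with 14136. Ace, the angiotensin-converting enzyme that non-classical monocytes express, was like Chil3 highest in Monocytes 3, with 164 CPM in APOE4 and 133 in APOE2. Stromal cells, the next label for Ace, had 97.8 and 117 CPM. Plac8, a small cysteine-rich protein of myeloid cells, reached 6205 and 4591 CPM and was second of the labels in APOE4 and first in APOE2. Nr4a1 was at 698 and 760 CPM, below M-MDSC 1 with 938 and 849. Ly6c2, the Ly6C antigen itself, was at 990 and 770 CPM, which ranked 7 of 22 labels in APOE4 and 5 of 19 in APOE2, so the label is not the one with most Ly6c2.

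Markers of other cells were low. The 18 macrophage genes summed to 1275 CPM in APOE4 and 1687 in APOE2, against 17371 and 20539 in Mø cluster 1. Folr2 was at 0 in both libraries. The macrophage gene Arg1 had 0 UMIs in APOE4 and 10 in APOE2. T cell markers (7 in the matrix) summed to 4.48 and 10.8 CPM, and NK cell markers (9) to 2.99 and 5.41.

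**Figure D1:**
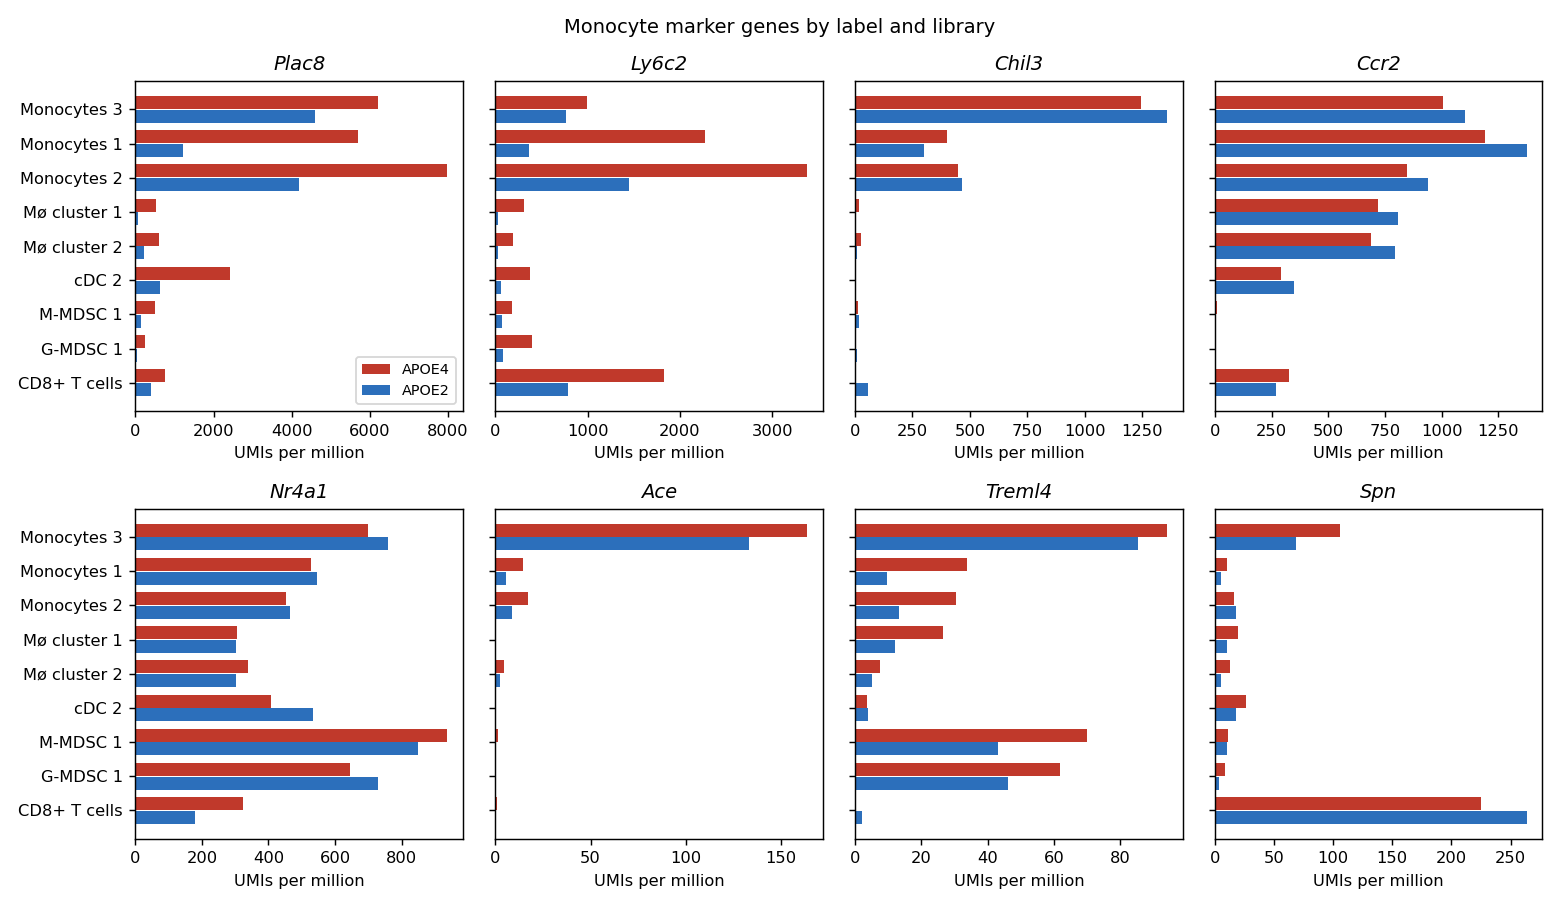
Levels of 8 monocyte genes in Monocytes 3 and 8 other labels. Bars give CPM of the label's summed UMIs, APOE4 (red) above APOE2 (blue). Chil3, Ace and Treml4 had their highest bars in Monocytes 3, whereas Ly6c2 was higher in Monocytes 2 and Spn in CD8+ T cells. Stromal cells, the next label for Ace, are not shown.

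The authors named 2 other groups of monocytes, and Monocytes 3 differed from both by more non-classical and fewer macrophage transcripts. The label rests on a clustering of the same genes, so what follows describes the cells and tests nothing. Of the 20 non-classical monocyte genes, 14 were at least 2-fold higher in Monocytes 3 than in Monocytes 1 in both libraries, beside 2.17% of the 9083 genes compared. Their median log2 ratio was 2.20 in APOE4 and 2.90 in APOE2. Ace stood at 164 CPM in Monocytes 3 against 14.6 in Monocytes 1 in APOE4, and at 133 against 5.82 in APOE2. Spn (CD43, a sialoglycoprotein that marks non-classical monocytes) was at 106 against 10.4 CPM in APOE4 and at 68.2 against 4.85 in APOE2. Serpinb10, an intracellular serine protease inhibitor, gave the leading difference by the naming rule, with 103 against 3.07 CPM in APOE4 and 75.7 against 1.29 in APOE2. Fabp4, a fatty acid binding protein, Ear2, an eosinophil-associated ribonuclease, and Ceacam1 and Pglyrp1 were also among the leading genes.

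In the other direction, 11 of 16 measured macrophage genes, 9 of 13 MHC class II genes and 14 of 24 glycolysis and hypoxia genes were at least 2-fold lower in Monocytes 3 than in Monocytes 1 in both libraries, beside 5.3% of all genes compared. C1qa, a chain of the complement component C1q, was at 5.98 against 472 CPM in APOE4 and at 42.2 against 978 in APOE2. Arg1, arginase, was at 0 against 88.9 CPM in APOE4 and at 10.8 against 672 in APOE2. Cxcl16, Cxcl1 and Mmp14, a chemokine pair and a matrix protease, were lower as well.

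Against Monocytes 2, the gap lay also in interferon genes. Of 29 measured type I interferon response genes, 27 were at least 2-fold lower in Monocytes 3 in both libraries, as were 25 of 28 interferon gamma response genes, beside 7.44% of the 8866 genes compared. Ifit3, an interferon-induced antiviral protein, was at 28.4 against 689 CPM in APOE4 and at 3.25 against 602 in APOE2. Ccl12, a monocyte chemoattractant, had 0 UMIs in Monocytes 3 in both libraries and 635 and 374 UMIs in Monocytes 2. Non-classical genes were again mostly higher, 14 of 20 by at least 2-fold in both libraries, beside 3.09% of genes. Another 1 of the 20 was at least 2-fold lower in both. Cd36, a scavenger receptor, was at 32.9 against 1.80 CPM in APOE4 and at 27.1 against 2.53 in APOE2. Klf2, a transcription factor of circulating leukocytes, was at 524 against 142 and at 660 against 146.

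As a share of all annotated cells, Monocytes 3 made up 4.33% of the APOE4 library (interval 3.80 to 4.90) and 3.62% of the APOE2 library (3.11 to 4.20). The ratio was 1.19 (0.984 to 1.45), and its interval includes 1. Other denominators gave other ratios. Among cells with a monocyte, macrophage, MDSC or dendritic cell name, the share was 7.27% of 3205 cells in APOE4 and 4.77% of 3545 in APOE2, a ratio of 1.52 (1.26 to 1.85). Among the 3 monocyte names it was 20.4% of 1143 cells in APOE4 and 20.9% of 808 in APOE2, a ratio of 0.975 (0.817 to 1.16). Monocytes 1 made up 33.6% of the monocyte names in APOE4 and 53.6% in APOE2, and Monocytes 2 made up 46.0% and 25.5%. Of the 3 names, Monocytes 3 thus had the closest shares in the 2 libraries. A fixed number of cells was sorted per mouse, so a share carries no cell number per tumour.

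**Figure D2:**
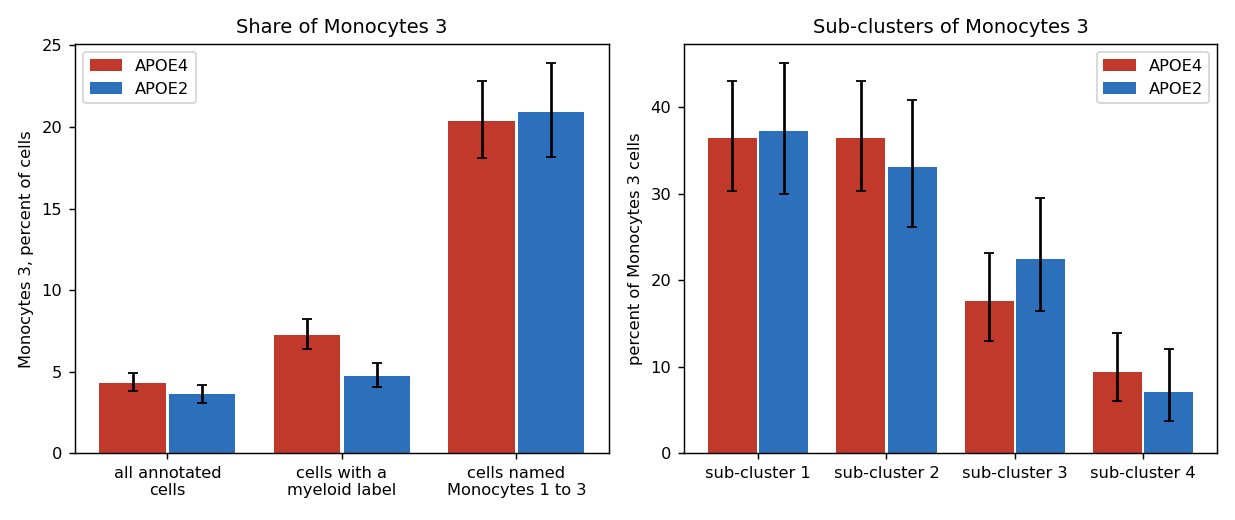
Left, Monocytes 3 as a percent of 3 denominators; right, the 4 sub-clusters as a percent of Monocytes 3 cells, APOE4 (red) left of APOE2 (blue), with exact Clopper-Pearson 95% intervals. The gap between libraries is widest for cells with a myeloid label (7.27% and 4.77%), and the intervals of every sub-cluster overlap.

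The label held cells of unlike kinds. Clustering its 402 cells again, with each library centred, gave 4 sub-clusters of 148, 141, 79 and 34 cells. Sub-cluster 4 was non-classical monocyte-like. Its leading genes over the other cells were Fabp4, Cd36, Cd9, Eno3, Treml4, Spn, Lair1 and Ace. Ace stood at 1040 CPM there, against 38.4, 25.2 and 384 in sub-clusters 1 to 3, and Ly6c2 at 56.0, against 1080, 1089 and 374. F13a1, coagulation factor XIII A chain and a classical monocyte gene, had 0 UMIs in sub-cluster 4. Nr4a1 was at 1929 CPM in sub-cluster 4, against 593, 519 and 1054. Its cells had a median of 3511 UMIs, against 6205 in the whole label in APOE4 and 5872 in APOE2.

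Sub-clusters 1 and 2 carried classical genes. Sub-cluster 1 was led by Lpl (lipoprotein lipase), Id1, Cebpa, a myeloid transcription factor, and F13a1 at 828 CPM, against 441, 182 and 0 in sub-clusters 2 to 4. Sub-cluster 2 was led by S100a8, S100a9 and Dab2 and had most Vcan (versican), with 876 CPM against 311, 116 and 8.0 in sub-clusters 1, 3 and 4, and most Thbs1 (thrombospondin), with 4610. The 2 S100 genes rest on a single cell described below. Sub-cluster 3 had intermediate levels of Ace and Ly6c2 and the most MHC class II transcripts, with H2-Ab1 at 1546 CPM against 325, 475 and 328. Hmox1, heme oxygenase, also led it, but 97 of the 195 Hmox1 UMIs of the label in APOE2 came from 1 cell.

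The sub-clusters were spread over both libraries. Sub-cluster 4 held 22 of 233 cells in APOE4 (9.44%, 6.01 to 13.9) and 12 of 169 in APOE2 (7.10%, 3.72 to 12.1), a ratio of 1.33 (0.677 to 2.61). The ratios of sub-clusters 1, 2 and 3 were 0.979, 1.10 and 0.783, and the intervals of all 4 include 1.

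**Figure D3:**
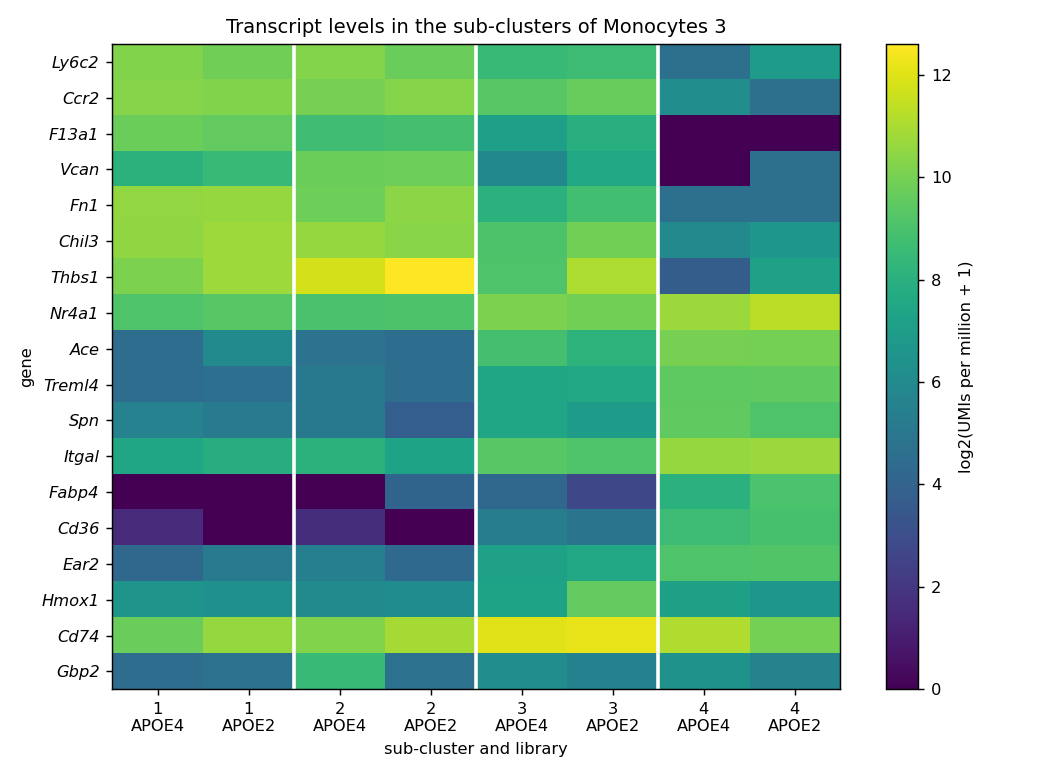
Levels of 18 genes in the 4 sub-clusters of Monocytes 3, each with APOE4 left of APOE2, as log2(CPM + 1). Ly6c2, Ccr2, F13a1 and Vcan are lowest in sub-cluster 4 and Ace, Treml4, Spn, Fabp4 and Cd36 highest, in both libraries.

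The split was also described cell by cell. These are the cells and genes that were clustered, so the shares describe it again and are no separate support. After each cell was thinned to 1500 UMIs, which left 215 cells in APOE4 and 161 in APOE2, Ace was found in 16.3% of cells in APOE4 and in 16.1% in APOE2 (30.0% and 31.4% without thinning). In CD8+ T cells, which should lack it, the thinned share was 0.212% in APOE4, and in APOE2 it was 0 of 111 cells, which allows up to 2.70%. Among cells with an Ace UMI, Ly6c2 was found in 17.1% in APOE4 and 19.2% in APOE2. Among cells without one, Ly6c2 was found in 59.4% and 43.7%. B cells at the same depth had Ly6c2 in 16.1% and 13.9%, so the shares in cells with Ace are close to background and are not read as Ly6c2 of these cells. Treml4, a receptor of non-classical monocytes, went the other way, with 51.4% and 38.5% of cells with Ace and 7.78% and 5.93% of cells without. Chil3 was found in 31.4% and 34.6% of cells with Ace, against 49.4% and 52.6% without. Hp was found in 31.4% and 46.2%, against 61.1% and 68.9%, and F13a1 in 2.86% and 23.1%, against 51.1% and 48.1%. In CD8+ T cells Chil3 was in 0 of 472 cells and 1.80%, and Hp in 0.212% and 0.901%. Cells with Ace thus held Treml4 more often and Ly6c2, Chil3, Hp and F13a1 less often in both libraries. Part of them still held the classical genes Chil3 and Hp. These shares rest on 35 cells with Ace in APOE4 and 26 in APOE2.

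Between genotypes, the identity genes of the label were close and its interferon genes were not. Of the 14 classical monocyte genes, 5 were higher and 9 lower in APOE4 and none reached 2-fold, with a median log2 ratio of -0.09, against 0.0006 over the 7218 genes with at least 20 UMIs in the label. Ly6c2 was 1.28 times as high in APOE4 (1.17 to 1.41), with 990 CPM against 770 in APOE2. In Monocytes 1 the ratio of Ly6c2 was 6.22 and in Monocytes 2 it was 2.32, so Monocytes 3 had the smallest ratio of the 3 names. Plac8 behaved likewise, with ratios of 1.35 in Monocytes 3, 4.69 in Monocytes 1 and 1.91 in Monocytes 2. Whether these ratios differ between labels was not tested, since each label has 1 sum per library.

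Non-classical genes had a median log2 ratio of 0.20, with 14 of 20 higher in APOE4. Ace was at 164 and 133 CPM and Nr4a1 at 698 and 760. At least 2-fold were Pglyrp1 and Cd300e, 2 of 20 beside 2.74% of all genes. Pglyrp1, a peptidoglycan recognition protein, was at 206 CPM in APOE4 and 67.1 in APOE2, a ratio of 3.06, and had UMIs in 118 of 233 cells in APOE4 and in 32 of 169 in APOE2. Its cells lay in all 4 sub-clusters of APOE4, with 39 of 85, 33 of 85, 26 of 41 and 20 of 22 cells, against 6 of 63, 4 of 56, 15 of 38 and 7 of 12 in APOE2. After thinning, 25.6% of cells in APOE4 and 9.32% in APOE2 had a Pglyrp1 UMI. The shares were 9.96% and 9.01% in CD8+ T cells and 3.23% and 11.1% in B cells. They were 3.95% and 0.232% in Monocytes 1, and 6.84% and 1.46% in Monocytes 2. The APOE2 share thus lies near those of CD8+ T and B cells and above those of the other monocyte names. Whether it is background was not tested. The Pglyrp1 ratio was 8.17 in Monocytes 1, from 69 UMIs in APOE4 and 10 in APOE2. In Monocytes 2 it was 10.7, from 211 and 8 UMIs. Both ratios thus rest on few UMIs in APOE2. Cd300e, an activating receptor, had 35 UMIs in APOE4 and 12 in APOE2 in 17 and 7 cells. Sub-cluster 4 held all 35 in APOE4 and 10 of the 12 in APOE2. The log2 ratio of 1.01 turned to -2.98 with equal weight per sub-cluster. That setting leaves sub-cluster 4 out, so the value rests on 0 UMIs in APOE4 and 2 in APOE2 and is not read as a reversal.

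All 26 measured type I interferon response genes of 30 listed were higher in APOE4, 14 of them by at least 2-fold beside 2.74% of all genes, with a median log2 ratio of 1.07. All 21 measured interferon gamma response genes of 30 were also higher, 17 by at least 2-fold beside the same 2.74%, with a median of 1.69. Interferons are antiviral and immune cytokines that switch on these genes. The libraries differ in interferon genes in other labels as well, so the pattern is not particular to Monocytes 3. Among the 19 labels with a value, its median ranked 14 from the highest for the type I list and 5 for the interferon gamma list. Monocytes 1 had medians of 2.01 and 1.52 for the 2 lists, and Monocytes 2 had 0.39 and 0.67.

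Cell by cell, after thinning, type I list transcripts numbered 0 to 29 per 1500 UMIs in APOE4 with a median of 8, and 0 to 21 in APOE2 with a median of 5. Interferon gamma list transcripts numbered 0 to 31 in APOE4 with a median of 3, and 0 to 5 in APOE2 with a median of 1. The ranges of cells in the 2 libraries overlap. Of the 3 sub-clusters with enough measured members, sub-cluster 2 had the widest gap, with medians of log2 ratios over members of 1.71 for the type I list and 2.27 for interferon gamma, against 0.51 and 0.70 in sub-cluster 1 and 0.94 and 0.65 in sub-cluster 3. Without sub-cluster 2, the label's medians were 0.62 and 1.09. Of the label's cells in the top 10% of their library by doublet score, all 7 lay in sub-cluster 2. Without cells of such scores, the label's medians were 1.02 for the type I list and 1.67 for interferon gamma. Their part in the gap within sub-cluster 2 was not tested.

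Cxcl10, a chemokine that attracts T cells through CXCR3, was at 591 CPM in APOE4 and 14.1 in APOE2, a ratio of 42.0 (24.4 to 79.3). In APOE4 its 791 UMIs lay in 48 of 233 cells, with 84 in the highest cell, and in APOE2 its 13 UMIs lay in 5 of 169 cells. After thinning, 13.5% of cells in APOE4 and 1.24% in APOE2 had a Cxcl10 UMI, against 9.68% of 62 B cells and 0 of 36 at the same depth. The APOE4 share lies close to that of B cells, so the share is not read as a difference, and the level is given with its concentration in few cells. In Monocytes 1 the Cxcl10 ratio was 2.42 and in Monocytes 2 it was 1.54, where levels were 3232 CPM in APOE4 and 2096 in APOE2. Cxcl9, its neighbour on chromosome 5 and a ligand of the same receptor, had 121 UMIs in 19 cells in APOE4 and 4 UMIs in 1 cell in APOE2.

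Isg15, a ubiquitin-like modifier, was at 293 CPM in APOE4 and 74.7 in APOE2, a ratio of 3.92 (3.03 to 5.15), with UMIs in 121 of 233 and 42 of 169 cells. Ifi47, an interferon-induced GTPase, was at 207 and 41.1 CPM, a ratio of 5.04 (3.58 to 7.27), with UMIs in 103 and 28 cells. Gbp2, a guanylate binding protein, was at 158 and 30.3 CPM, a ratio of 5.23 (3.52 to 8.06). After thinning, Gbp2 was found in 15.3% of cells in APOE4 and 5.59% in APOE2. B cells had it in 8.06% and 5.56%, and CD8+ T cells in 14.2% and 13.5%, so the APOE2 share is close to that of B cells. Isg15 was found in 28.4% and 4.97%, against 6.45% and 2.78% of B cells and 35.8% and 28.8% of CD8+ T cells. For Ifi47 the shares were 22.3% and 6.21%, against 11.3% and 2.78% of B cells and 32.8% and 27.0% of CD8+ T cells. Sub-cluster 2 held 177 of the 212 Gbp2 UMIs in APOE4 and 8 of 28 in APOE2. Rsad2 (viperin), Gbp5, Gbp7 and Pydc4 were also among the 12 leading genes, with ratios of 9.21, 5.91, 4.20 and 4.62. The transcription factor Irf1 was at 312 CPM in APOE4 and 98.5 in APOE2. Gbp and Ifit genes have near-identical relatives, between which reads can be split or lost.

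The promoters of 4 leading interferon genes are shown, and all 4 hold the motif given below. Cxcl9 and Ifi47, also among the leading higher genes, had a window without it and are not shown. Each runs from 250 bases before to 50 bases after the RefSeq start of the gene (GRCm38.p6), 5' to 3' along the gene's strand, with capitals for GAAANNGAAA or its reverse complement TTTCNNTTTC, the core spacing of interferon-stimulated response elements, and matches may overlap.
Cxcl10 (chr5:92348840-92349139, minus strand): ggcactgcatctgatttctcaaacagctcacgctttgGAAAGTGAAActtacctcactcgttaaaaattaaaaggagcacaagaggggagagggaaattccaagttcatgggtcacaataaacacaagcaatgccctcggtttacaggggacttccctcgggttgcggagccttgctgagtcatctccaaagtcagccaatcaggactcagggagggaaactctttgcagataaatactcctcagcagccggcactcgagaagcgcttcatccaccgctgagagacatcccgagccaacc
Isg15 (chr4:156200769-156201068, minus strand): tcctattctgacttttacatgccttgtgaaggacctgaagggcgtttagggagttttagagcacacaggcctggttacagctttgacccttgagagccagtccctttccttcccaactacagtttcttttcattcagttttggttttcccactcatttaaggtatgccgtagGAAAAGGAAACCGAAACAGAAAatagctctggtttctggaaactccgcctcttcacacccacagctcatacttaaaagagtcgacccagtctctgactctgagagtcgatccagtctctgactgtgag
Rsad2 (chr12:26456403-26456702, minus strand): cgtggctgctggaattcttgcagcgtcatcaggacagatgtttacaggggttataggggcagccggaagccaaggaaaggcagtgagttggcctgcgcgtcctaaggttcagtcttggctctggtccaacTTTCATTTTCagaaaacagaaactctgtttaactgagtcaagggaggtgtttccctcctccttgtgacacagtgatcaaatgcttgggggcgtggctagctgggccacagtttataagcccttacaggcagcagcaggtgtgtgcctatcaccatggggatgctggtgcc
Gbp2 (chr3:142620413-142620712, plus strand): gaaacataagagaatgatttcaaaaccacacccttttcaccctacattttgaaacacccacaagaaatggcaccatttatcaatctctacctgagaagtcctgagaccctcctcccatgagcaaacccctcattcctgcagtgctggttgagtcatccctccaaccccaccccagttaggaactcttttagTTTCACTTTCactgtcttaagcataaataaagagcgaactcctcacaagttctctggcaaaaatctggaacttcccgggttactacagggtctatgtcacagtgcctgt
Isg15 held 3 overlapping matches and the other three promoters 1 each. Of all 32851 promoter windows, 3.44% held the motif on either strand, and of the 27025 genes with a window 3.99% did. It was found for 13 of the 20 type I list genes with a window, for 12 of 22 interferon gamma list genes and for 0 of 10 classical monocyte genes. Of the 12 leading higher genes 11 had a window and 6 held it, and of the 12 leading lower genes 7 had a window and 0 held it. A match of these letters describes the window and does not show binding.

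**Figure D4:**
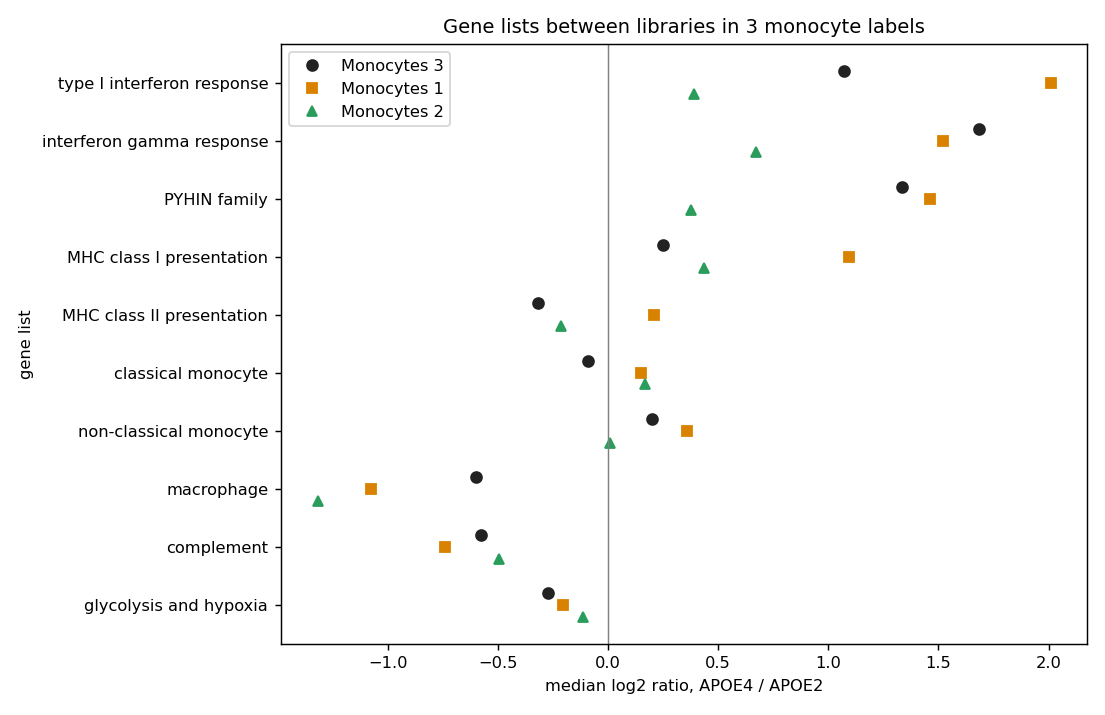
Median log2 ratio (APOE4 over APOE2) of 10 gene lists in Monocytes 3 (circles), Monocytes 1 (squares) and Monocytes 2 (triangles). Interferon and PYHIN lists lie to the right of 0 and the macrophage, complement and glycolysis lists to the left in all 3 labels, while MHC class II lies left of 0 in Monocytes 3 (-0.32) and Monocytes 2.

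Of 22 MHC class I presentation genes, 18 were higher in APOE4 but only Nlrc5, their transcriptional activator, by at least 2-fold, with 47.1 CPM against 15.1, and the median was 0.25. B2m and H2-K1, the light chain and a heavy chain of MHC class I, had ratios of 1.07 and 1.13. Of 11 measured MHC class II genes, 3 were higher and 8 lower, with a median of -0.32. The 7 measured PYHIN genes, a family of DNA sensors with near-identical members, were all higher, 5 by at least 2-fold beside 2.74% of all genes, with a median of 1.34.

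S100a8, S100a9 and Lcn2, genes of neutrophil granules and cytosol, ranked among the leading higher genes, but 1 cell held most of their UMIs. That APOE4 cell held 483 of 532 S100a8 UMIs, 533 of 617 S100a9 UMIs and 48 of 65 Lcn2 UMIs. It had the most UMIs of any APOE4 cell of the label, belonged to sub-cluster 2 and was in the top 10% of its library by doublet score. With it, the ratios were 11.5, 11.2 and 8.98, and without it they were 1.07, 1.54 and 2.37. Without the richest cell of each gene in both libraries they were 2.26, 3.63 and 3.91. The 13 neutrophil markers summed to 1208 CPM in APOE4 and 430 in APOE2, and to 438 in APOE4 without that cell.

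Lower in APOE4 were genes of several kinds. Cxcl2, a neutrophil-attracting chemokine, was at 620 CPM in APOE4 and 1432 in APOE2, 2.31-fold lower (2.11 to 2.52), with UMIs in 83 of 233 and 97 of 169 cells. Thbs1 was at 1817 and 3264 CPM, 1.80-fold lower (1.70 to 1.90), in 156 and 137 cells. The ratio of neither moved by over 1.5 times without the 5 cells richest in the gene. Dab2, an endocytic adaptor, had 29 UMIs in 19 cells in APOE4 and 80 UMIs in 39 cells in APOE2. H2-Eb1, an MHC class II chain, was at 277 and 584 CPM, but 76 of 371 and 104 of 540 UMIs came from 1 cell in each library. Of the macrophage list, 13 of 14 measured genes were lower, 3 by at least 2-fold beside 1.63% of all genes, with C1qb at 26.2 and 69.3 CPM. After thinning, C1qb was found in 2.33% of cells in APOE4 and 5.59% in APOE2, against 2.33% and 6.31% of CD8+ T cells, so it is read as background. Its direction also reversed with equal weight per cell, at a log2 ratio of 0.19.

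Ccl5, Hmox1 and Lyz1 were led by few cells. For Ccl5, a T cell chemokine, 72 of 102 UMIs in APOE2 came from 1 cell, and without the 5 richest cells of each library it was higher in APOE4, by a log2 ratio of 1.79. Hmox1 and Lyz1 likewise reached 0.45 and 0.31 without them.

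Gsr, glutathione reductase, was at 101 CPM in APOE4 and 795 in APOE2, 7.88-fold lower (6.55 to 9.54), with UMIs in 95 of 233 and 149 of 169 cells and in every sub-cluster. It was also lower in Monocytes 1 and Monocytes 2, with ratios of 0.266 and 0.255. Ppp2cb, a phosphatase catalytic subunit, was 2.99-fold lower in Monocytes 3, but its ratios in Monocytes 1 and Monocytes 2 were 0.858 and 0.888. After thinning, its log2 ratio in Monocytes 3 was -0.57, in place of -1.58. In mm10 Ppp2cb ends at position 33619441 of chromosome 8, where Gsr starts at 33652523. Gm26740, annotated as an antisense transcript on chromosome 10 (22187013 to 22302835, minus strand), had 0 UMIs in APOE4 and 91 in 65 cells in APOE2, at least 43.9-fold lower with 0 set to 3 counts. It was at 0 in APOE4 in Monocytes 1 and 2 too. After thinning, Gm26740 was found in 18.6% of Monocytes 3 cells in APOE2. In that library it was in 34.2% of CD8+ T cells and 30.6% of B cells, and in APOE4 in 0 of both. The difference between libraries is thus not particular to monocytes. Whether reads were counted by strand is not given in the sources used here, so its reads cannot be told apart from those of a partner gene.

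**Figure D5:**
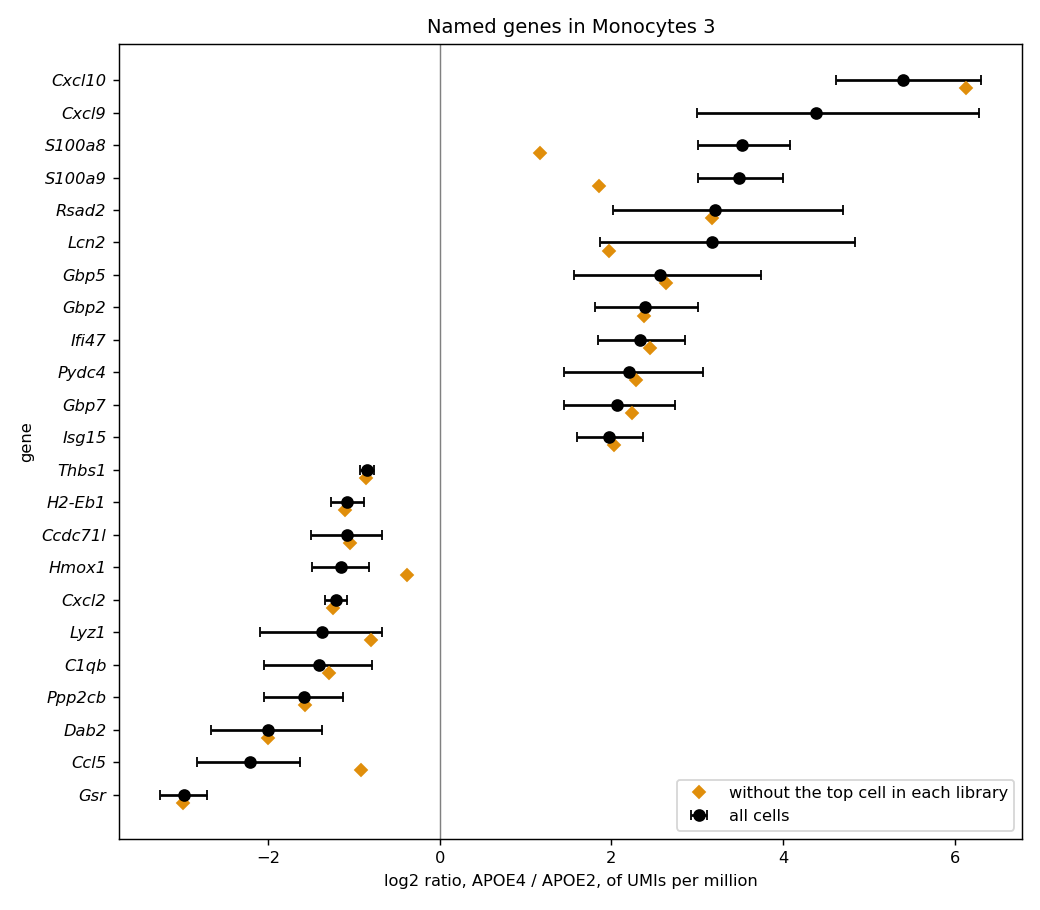
APOE4 over APOE2 ratio of 23 leading genes in Monocytes 3 on a log2 axis, with exact 95% counting intervals (black) and the ratio without the richest cell of each library (orange). The orange points of S100a8, S100a9, Ccl5 and Hmox1 lie outside their intervals; Cxcl9 has none, since its 4 APOE2 UMIs come from 1 cell, and Gm26740 is left out because it is at 0 in APOE4.

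Glycolysis and complement genes were mostly lower. Of 22 measured glycolysis and hypoxia genes 18 were lower in APOE4, none by 2-fold, with a median of -0.27. Of 10 measured complement genes 8 were lower, 4 by at least 2-fold beside 1.63% of all genes, with a median of -0.58. These 4 were C1qa, C1qb, C1qc and C3ar1. C1qa was at 5.98 CPM in APOE4 and 42.2 in APOE2, below CD8+ T cells of the same libraries with 23.5 and 70.3, and C1qc likewise at 5.98 and 23.8 against 14.5 and 33.0, so neither is read as a difference in these cells. Il1b, an inflammatory cytokine, was at 3586 CPM in APOE4 and 3292 in APOE2, and Ccl2, which recruits monocytes through CCR2, at 203 and 217. The immediate early genes had a median of 0.03, with 13 higher and 12 lower.

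The genes whose levels over 41 sums of label and library were most like Nr4a1 were Fem1c, Cdk2ap2, Tiparp, Kdm7a and Picalm, with Pearson correlations of log2(CPM + 1) from 0.839 to 0.865. For Ace they were Plcb1, Gm1673, Msantd3, Zfyve9 and Vcan, from 0.813 to 0.911. The sums share their libraries and differ in depth, so these values are descriptions. Vcan was like Ace across labels, yet within Monocytes 3 it was lowest, at 8.0 CPM, in sub-cluster 4, where Ace was highest.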

How the data were processed

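Single-cell counts came from 1 pooled library per genotype. Per the file headers, the authors' deposited matrices of raw UMI counts were made with Cell Ranger 3.0.1. Per the submitters' processing notes, mm10 and Seurat 3.0.2 were used. The deposited table, whose headers name an integrated assay, gives each cell's label, counts and percent of mitochondrial UMIs. Its embedding coordinates (a score per the file headers) were not used. UMIs summed from the matrices equal the table in 2733 APOE4 and 2150 APOE2 cells, and differ in the others. Ensembl IDs matched GENCODE M21 for 27645 of 27998 (98.7%).

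Here UMIs were summed per label and library (Python 3.11.15, SciPy 1.17.1) and given as CPM, with exact Poisson, Clopper-Pearson or conditional binomial intervals at 95%. A library at 0 was set to 3 counts for a bound, and in list medians genes with 0 UMIs in a library had 0.5 added in both. Lists and counts of genes used at least 20 UMIs over both libraries. Genes named between libraries had at least 50 UMIs and were the 12 highest and 12 lowest by the interval bound nearest to 1, and none was ribosomal, mitochondrial, haemoglobin, sex-linked or an antigen receptor segment. Genes named against other labels were the 12 highest and 8 lowest by the smaller bound of the libraries. From lists, label markers and examples were named. Sub-clusters used Scanpy 1.11.5 (1500 variable genes, 20 components, 15 neighbours, Leiden resolution 0.5) and were named by their 8 leading genes. Scrublet called 3 cells in APOE4 and 0 in APOE2 in all, too few to have worked, so no cell was removed. Scaling alternatives came from edgeR 4.0.16 and DESeq2 1.42.0 (R 4.3.3). The ratio computation was tested on simulated data. Members and lists were chosen with earlier results of these data known.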

Additional observations from a re-analysis of the deposited data

How the results depend on the processing

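No paired analysis was possible because each genotype is 1 library with no shared replicate number. All medians of the type I interferon, interferon gamma, MHC class I and MHC class II lists kept within their member intervals except without sub-cluster 2 (added after seeing the data), at 0.62, 1.09 and 0.068 for the type I, gamma and class I lists. The share ratio of 1.19 was 1.52 among myeloid labels and 0.975 among monocyte names. The counts of genes past 2-fold, 198 higher and 118 lower, were 311 and 189 with equal weight per cell, 756 and 667 thinned, 665 and 200 without the 5 richest cells of each gene, 39 and 9 with at least 100 UMIs, 1773 and 1357 with at least 1 UMI, 668 and 543 at 1.5-fold and 54 and 19 at 3-fold. The count lower was 187 with equal weight per sub-cluster and 215 without sub-cluster 2. Classical genes against all other cells gave 1.51 in place of 0.84 against Monocytes 2. At resolution 0.3, sub-cluster 4 merged into a cluster of 26.1% of cells, in place of 8.46%. Of the 24 leading genes, all kept their direction under both scalings and without the richest cell of each library. Those that reversed in log2 ratio were S100a9 and S100a8 without high doublet scores (-0.11 and -0.60) and without sub-cluster 2 (-0.024 and -1.13), Lcn2 thinned (-0.0022), C1qb with equal weight per cell (0.19), and Ccl5, Hmox1 and Lyz1 without the 5 richest cells (1.79, 0.45 and 0.31). Cd300e, on the non-classical list, reached -2.98 with equal weight per sub-cluster, where sub-cluster 4, which held most of its UMIs, does not count. The cause of the other reversals was not tested. Depth limits genes with few UMIs, and intervals do not cover the spread between mice.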

Other observations

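Lipid handling genes, of interest because APOE carries lipids, were close between libraries in Monocytes 3. Of 19 measured LXR target and lipid handling genes, 7 were higher and 12 lower in APOE4, none by at least 2-fold, with a median log2 ratio of -0.17. Abca1, a cholesterol exporter, was at 32.1 CPM in APOE4 and 60.6 in APOE2, and Pltp, the phospholipid transfer protein, at 38.1 and 67.1. Of 13 measured cholesterol synthesis genes, 10 were higher and 3 lower, with a median of 0.25. Of 8 APOE receptor genes, 4 were higher and 4 lower. Trem2, a lipid-sensing receptor, was at 60.5 CPM in APOE4 and 93.1 in APOE2.

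Genes of the respiratory chain encoded in the nucleus gave a median of -0.06 over 37 members, with 14 higher and 23 lower. Among 26 measured monocyte transcription factors, Cebpa was at 82.2 CPM in APOE4 and 137 in APOE2, and Tcf7l2 at 36.6 and 17.3. The cells held little sign of division: the 12 proliferation markers in the matrix summed to 179 CPM in APOE4 and 202 in APOE2.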
